A study of Mus musculus with 5 samples.

Results

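Cells that divide make a set of transcripts that cells at rest nearly lack, and 38 such genes are described here, of 32285 genes counted in the series. They were chosen by name, with no measured value in the rule, as 23 genes, here called mitotic, that work in mitosis apart from Mxd3, a regulator of the MYC network, and 15 that work in DNA replication or in the entry into it. The genes were followed in single-cell RNA-seq of 5 mouse libraries, in cells thinned to 2000 unique molecular identifiers (UMIs, each standing for 1 captured transcript) and sorted into types by marker genes. 3 libraries came from the penis of mice at postnatal day 6 (P6), labelled C57BL/6N. The animals were 3 males from 2 litters, and the prepuce was removed so that mostly glans was left. The other libraries came from forelimbs and from hindlimbs of embryos, also labelled C57BL/6N, 15 days after conception, 1 library for each limb, from male embryos that both libraries may share. The labels and the published methods disagree on the strain, which the methods name as C57BL/6J. The labels name no mutant allele and no treatment in any group. Tissue, age and preparation differed together between penis and limb, so their parts in any difference cannot be told apart.

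A cell that divides first licenses its DNA for copying, when Cdc6 and Cdt1 load the ring-shaped MCM helicase (Mcm2 to Mcm7) onto origins. Cyclin E (Ccne1, Ccne2) drives the entry into S phase, Pcna clamps the polymerase to DNA, Rrm1, Rrm2 and Tyms supply nucleotides, and Esco2 locks the sister chromatids together. Later Ccna2, Ccnb1 and Ccnb2 activate the kinase Cdk1, the kinases Aurka, Aurkb and Plk1 build and police the spindle with the checkpoint proteins Bub1 and Bub1b, and Top2a untangles the chromosomes. Cenpe and Cenpf act at the kinetochore, Hmmr, Kif11, Tpx2 and Nusap1 in the spindle, Prc1, Anln and Birc5 in the last steps of division, and Ube2c marks cyclins for destruction. Mki67 coats mitotic chromosomes and is the usual marker of cycling cells. Most of these genes are switched on once per cycle, the replication genes mainly through E2F sites in their promoters and the mitotic genes mainly through a CHR element, often with CCAAT boxes.

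Those promoter letters could be read for 32 of the 38 genes, in the RefSeq table of build GRCm38.p6, over 250 bases before to 50 bases after the start of transcription. TTTGAA (the core of the CHR element, searched on both strands) stood in 14 of 20 mitotic promoters (70%), in 1 of 12 replication promoters (8.33%) and in 17.9% of all 32851 promoters. An E2F site (TTTCCCGC or TTTGGCGC, both strands) stood in 6 of 12 replication promoters (50%), in 0 of 20 mitotic promoters and in 1.56% of all promoters. The CCAAT box (CCAAT, both strands) was found in 16 mitotic (80%) and 8 replication promoters (66.7%), against 37.4% of all promoters. In 9 of the 20 mitotic promoters (45%) a CCAAT box began 20 to 40 bases before a CHR element, an arrangement held by 0.895% of all promoters. These matches describe the letters in the window and do not show that a factor binds there, and no overlap between the kinds of motif occurred in the stretches printed.

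The 170 bases before the start site of 5 genes are printed, 5′ to 3′ on the strand of the gene, to show both layouts. Capitals mark the motifs found, where TTCAAA is the CHR letters and ATTGG the CCAAT letters on the opposite strand. Cdk1, Ube2c and Kif11 have a CHR element close to the start with a CCAAT box upstream of it, beginning 15 and 48 bases before the start in Cdk1, 29 and 57 in Ube2c, and 19 and 45 in Kif11. Mcm6 has E2F sites beginning 110 and 47 bases before its start, CCAAT boxes beginning 57 and 14 bases before it, and no CHR element. Rrm2 has a CCAAT box alone. The stretches lie at chr10:69352913-69353082 (minus strand) for Cdk1, chr2:164769759-164769928 (plus) for Ube2c, chr19:37376212-37376381 (plus) for Kif11, chr1:128359706-128359875 (minus) for Mcm6 and chr12:24708084-24708253 (plus) for Rrm2.
Cdk1: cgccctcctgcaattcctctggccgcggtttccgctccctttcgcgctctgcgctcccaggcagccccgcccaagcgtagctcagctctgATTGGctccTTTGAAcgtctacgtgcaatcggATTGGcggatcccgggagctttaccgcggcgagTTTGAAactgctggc
Ube2c: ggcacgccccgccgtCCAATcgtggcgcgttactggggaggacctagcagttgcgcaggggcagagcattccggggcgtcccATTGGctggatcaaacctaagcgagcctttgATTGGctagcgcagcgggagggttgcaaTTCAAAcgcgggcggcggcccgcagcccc
Kif11: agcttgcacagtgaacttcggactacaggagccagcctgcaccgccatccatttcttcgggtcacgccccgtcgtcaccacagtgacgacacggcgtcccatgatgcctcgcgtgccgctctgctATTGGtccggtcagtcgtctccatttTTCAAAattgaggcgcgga
Mcm6: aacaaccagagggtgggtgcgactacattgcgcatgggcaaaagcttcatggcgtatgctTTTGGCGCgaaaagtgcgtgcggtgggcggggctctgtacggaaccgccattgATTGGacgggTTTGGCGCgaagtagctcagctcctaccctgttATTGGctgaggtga
Rrm2: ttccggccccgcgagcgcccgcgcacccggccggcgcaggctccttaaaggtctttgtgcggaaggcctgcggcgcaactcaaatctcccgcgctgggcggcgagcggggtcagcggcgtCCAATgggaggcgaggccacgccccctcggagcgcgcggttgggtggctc

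The penis libraries kept 5708 to 7085 cells and the limb libraries 20514 and 22057, with a median of 8791.5 to 9909 UMIs per penis cell against 5358 and 6057 per limb cell. Since a deeper cell shows more of its genes, each cell was thinned at random to 2000 UMIs before any cell was counted, which left 18048 penis and 38447 limb cells and dropped 7.32% to 11.3% of cells per library. Between 20 and 203 cell barcodes were shared by any pair of libraries. A cell was called mitotic-positive with a UMI of at least 2 of the 23 mitotic genes, and replication-positive with a UMI of at least 3 of the 15 replication genes. Types were named from fixed markers (for example, mesenchyme-like with at least 4 of 8 genes including Pdgfra, Prrx1 and Twist1), and 8 types had at least 20 cells in every library. All markers of 7 of those types were detected in each of the 5 libraries, whereas the penis chondrocyte-like cells lacked Matn1.

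Mitotic-positive cells were 3.54 times as frequent in the limb as in the penis. The mitotic-positive share of all cells was 8.17%, 7.54% and 7.50% in the penis libraries (7.73% ± 0.378, SD, n = 3), against 27.8% for the forelimb and 26.8% for the hindlimb. Exact binomial 95% intervals, which cover counting error only, reached from 6.80% to 8.87% over the penis libraries and from 26.2% to 28.5% over the limb libraries, and the groups did not overlap. The replication-positive share was 5.25%, 4.91% and 4.88% in the penis, against 16.7% for the forelimb and 15.9% for the hindlimb, a ratio of 3.25. A smaller gap was seen without thinning, at a ratio of 1.98, and with 1 mitotic gene as the minimum, at 2.27.

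Depth and the cell filter moved with these shares. Mitotic-positive cells held a median of 11646 to 12560 UMIs in the penis libraries against 9029 to 10204 in the other cells, and 7826 and 8558 against 5317 and 5889 in the limbs. The study's methods set an upper limit of 6000 genes per cell for the penis. It removed 281 to 472 barcodes per penis library that passed the other cell limits. In the limbs, where the limits were 9000 and 9500 genes, 9 and 5 such barcodes were removed. A common filter for all libraries took at least 500 genes with no upper limit and at most 10% mitochondrial UMIs. With it the mitotic-positive share was 10.0%, 8.96% and 9.01% in the penis and 28.4% and 27.0% in the limbs, a ratio of 2.97. This filter also raised the mitochondrial limit of the penis from 5%. Before thinning it kept 6648 to 8460 cells per penis library in place of 5708 to 7085. The parts of the gene limit and the mitochondrial limit in the shift were not separated.

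The mitotic-positive share was higher in both limb libraries than in the penis libraries in every one of the 8 types. The counting intervals overlapped in tendon-like and chondrocyte-like cells. In mesenchyme-like cells, the largest type, 6.14%, 5.88% and 5.92% of penis cells were mitotic-positive (5.98% ± 0.138, n = 3), against 24.1% of forelimb and 23.04% of hindlimb cells, a ratio of 3.94. Endothelial-like cells, which line vessels, reached 18.1%, 14.3% and 12.4% in the penis against 44.9% and 47.2% in the limbs. Basal epithelial-like cells, the layer that renews the epidermis, gave 20.7%, 15.5% and 18.5% against 48.1% and 52.4%. Mural-like cells, which wrap small vessels, gave 8.33%, 10.8% and 12.8% against 43.1% and 43.2%, a ratio of 4.05. For Schwann-like, macrophage-like and tendon-like cells the ratios were 3.74, 3.39 and 2.52. Chondrocyte-like cells stood at 1.76, a value that moved to 5.26 with 1 more marker per gate. That gate left fewer than 20 penis chondrocyte-like cells per library, and the part of counting error in the shift was not tested. The ratio of chondrocyte-like replication-positive shares at the same gate as the 1.76 was 0.863. Without thinning the ratios drew closer to 1, at 2.20 in mural-like, 2.03 in endothelial-like, 1.99 in basal epithelial-like, 2.09 in macrophage-like, 2.30 in Schwann-like, 2.06 in tendon-like, 2.09 in mesenchyme-like and 1.23 in chondrocyte-like cells. With 1 mitotic gene as the minimum they were 2.32 in mural-like, 2.04 in Schwann-like and 1.89 in macrophage-like cells. In none of the 8 types did a penis library reach a limb library, while the replication-positive shares overlapped in tendon-like and chondrocyte-like cells.

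**Figure D1:**
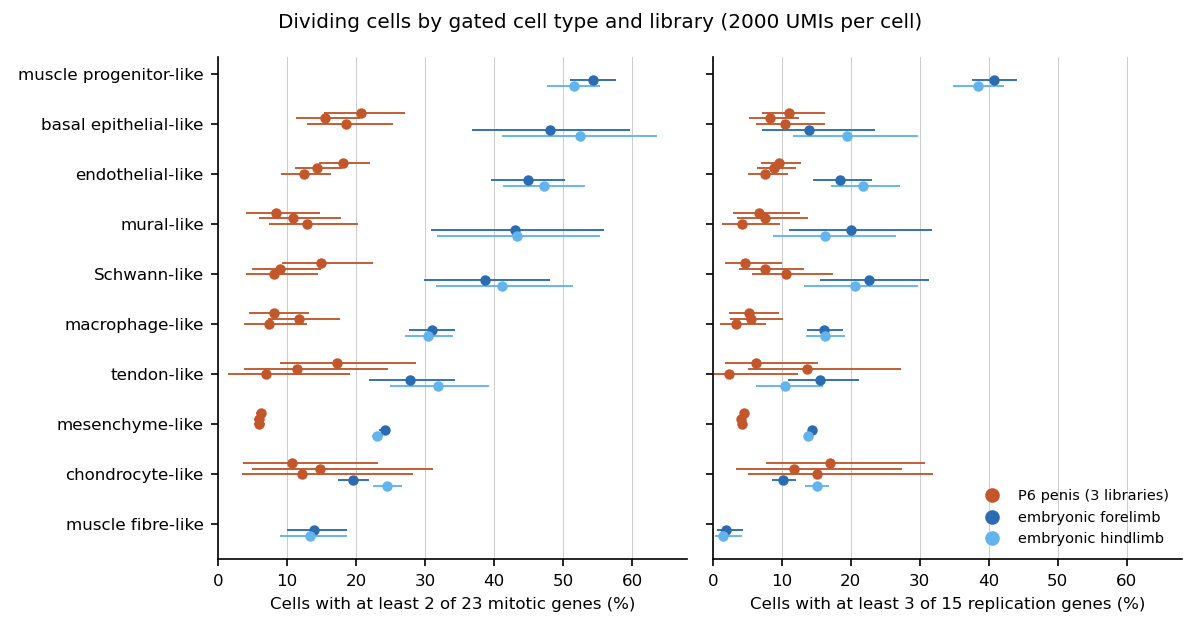
Share of cells (%, horizontal axis) with at least 2 of 23 mitotic genes (left) and at least 3 of 15 replication genes (right) by gated type, 1 point per library of at least 20 cells, with bars for the exact binomial 95% interval. On the left, limb points lie to the right of penis points in every type that both tissues hold. The limb over penis ratio is 4.05 in mural-like and 1.76 in chondrocyte-like cells. The chondrocyte-like ratio was 5.26 with 1 more marker per gate, which left fewer than 20 penis cells per library. Muscle types reach 20 cells in the limb libraries alone.

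The order of the types was partly shared by both tissues. In the penis the basal epithelial-like cells had the highest mitotic-positive share of the 8 types in each library, and mesenchyme-like cells the lowest. The endothelial-like shares overlapped with those of the basal epithelial-like cells over the penis libraries and were lower in each single library. Mesenchyme-like cells ranked below 6 other types in the limbs too, where chondrocyte-like cells stood at 19.5% (forelimb) and 24.5% (hindlimb), on either side of them.

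The limbs also held muscle cells, at both ends of the range or near them. Muscle progenitor-like cells (at least 2 of 8 genes including Pax7, Myf5 and Myod1) were mitotic-positive in 54.4% of 890 forelimb and 51.5% of 683 hindlimb cells, and replication-positive in 40.8% and 38.5%. Muscle fibre-like cells (at least 4 of 9 genes including Myh3, Acta1 and Myog) were taken as having left the cycle. They were mitotic-positive in 13.9% of 267 (95% interval 9.95% to 18.6%) and 13.2% of 204 cells (8.91% to 18.7%). Their replication-positive shares were 1.87% and 1.47%. Of the fibre-like cells positive by either list, 5.0% and 3.45% were positive by both, against 26.1% and 23.6% in limb mesenchyme-like cells. The fibre-like share is the level that the mitotic count reached in a type that should lack it. Each of the 8 types lay above it in both limbs, though the forelimb chondrocyte-like interval (17.3% to 21.8%) overlapped the fibre-like one. Hypertrophic chondrocyte-like cells (at least 3 of 6 genes including Col10a1), also taken as not dividing, gave 14.3% of 35 forelimb cells (4.81% to 30.3%). In the hindlimb they gave 21.1% of 38 (9.55% to 37.3%). These intervals held the shares of mesenchyme-like and chondrocyte-like cells of the same limb. The penis held at most 4 muscle progenitor-like and 4 hypertrophic cells per library and no fibre-like cells, so no such level could be measured there. In each penis library the shares in mesenchyme-like (5.88% to 6.14%), macrophage-like (7.38% to 11.7%) and mural-like cells (8.33% to 12.8%) lay below the limb fibre-like level. Those in endothelial-like, Schwann-like, tendon-like and chondrocyte-like cells lay on both sides of it, and those in basal epithelial-like cells above it. What share of the penis calls is false was not tested.

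The transcript of cyclin E1, Ccne1, was detected in 30.6% of forelimb and 26.5% of hindlimb muscle progenitor-like cells, against 6.20% and 5.49% of mesenchyme-like cells. Its paralog Ccne2 was found in 5.73% and 5.56% of the progenitors against 3.83% and 3.76% of mesenchyme-like cells. Top2a was found in 34.6% and 32.4% of the progenitors. Over both limbs together, Ccne1 was found in 35.2% of the mitotic-positive progenitors and in 21.6% of the others. With 1 library per limb, these values were not tested.

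Within mesenchyme-like cells, where the mix of the gated types does not enter, the 38 genes were each higher in the limb (edgeR, adjusted p under 0.05). Over all 20248 genes tested there, 35% were called higher in the limb and 35.3% higher in the penis, so calls were frequent and the count of 38 is to be read against that background. For the 38 genes, the fold ran from 1.56 (Ccne2) to 5.08 (Ube2c) with a median of 2.60. The median change over all genes was near 0, which follows largely from the scaling between libraries (TMM) and is not a result. Less RNA per dividing cell and fewer dividing cells cannot be told apart in such sums.

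**Figure D2:**
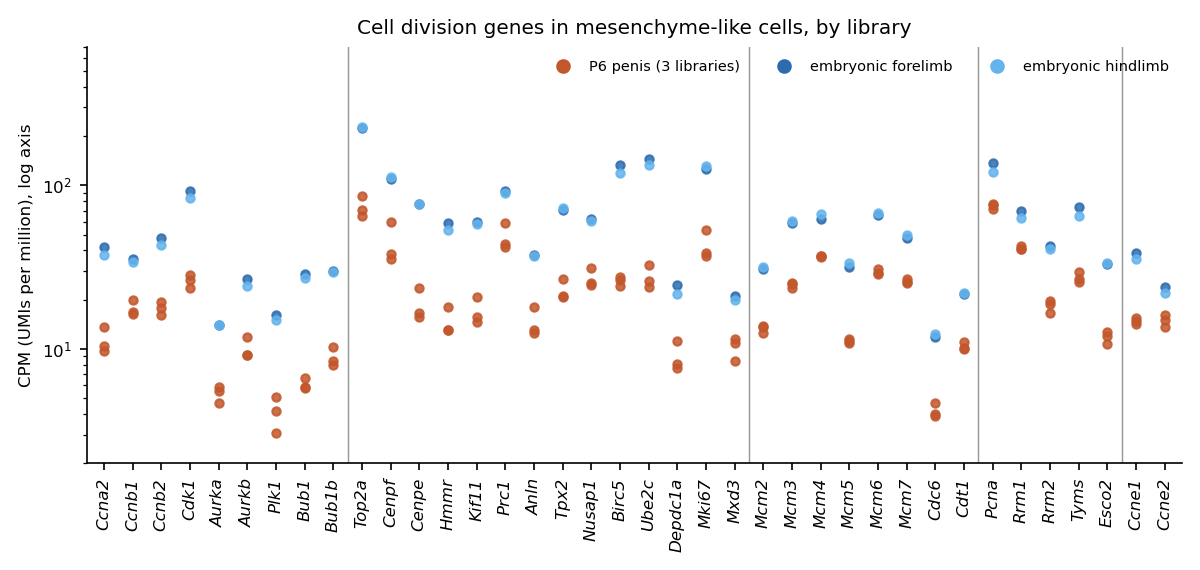
CPM (UMIs of a gene scaled to a fixed total per library, vertical log axis) of the 38 genes in mesenchyme-like cells, 1 point per library, in the order of their roles with vertical lines between them: mitotic cyclins and kinases, spindle and chromosome genes, replication licensing, fork and nucleotide genes, and cyclin E. The median log2 change (penis minus limb) by role runs from -1.77 in mitotic cyclins and kinases to -0.99 in cyclin E.

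The 9 mitotic cyclins, kinases and checkpoint genes had a median log2 change (penis minus limb) of -1.77. Cdk1, the kinase that triggers mitosis (chr10:69335146-69352912), stood at 26.3, 23.7 and 28.2 CPM (its UMIs scaled to a fixed total per library) in the penis libraries, against 92.5 (forelimb) and 84.1 (hindlimb). Its log2 change was -1.78 (SE 0.07, edgeR adjusted p = 1.44e-07). Bub1, a checkpoint kinase, moved further, from 5.88, 5.81 and 6.69 in the penis to 28.6 and 27.0 in the limbs (log2 change -2.20, SE 0.07, edgeR adjusted p = 5e-08). Aurkb, the kinase of the chromosome passenger complex, was at 9.15, 9.20 and 11.9 against 26.7 and 24.3 (log2 change -1.36). Ccnb1, the cyclin partner of Cdk1, changed least of the 9, with 16.8, 16.4 and 19.9 against 35.6 and 33.9 (log2 change -0.99, SE 0.08, edgeR adjusted p = 5.29e-06). The penis values of these genes spread far less than the gap between the groups.

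The 14 spindle, centromere and chromosome genes (median log2 change -1.62) held the largest changes. Ube2c (chr2:164769929-164772902) rose from 26.2, 24.01 and 32.8 CPM in the penis to 144 and 133 in the limbs, a log2 change of -2.34 (SE 0.10, edgeR adjusted p = 2.09e-07). Birc5, which keeps the passenger complex on chromosomes and is also known as survivin, was at 26.3, 24.3 and 27.4 against 133 and 119 (log2 change -2.30, SE 0.07, edgeR adjusted p = 2.82e-08). Top2a (chr11:98992947-99024199) was at 70.3, 64.8 and 86.4 against 225 and 228, with a log2 change of -1.64. Mki67 (chr7:135689784-135716450) gave 38.6, 37.2 and 53.4 against 125 and 131, a log2 change of -1.59. At the small end stood Prc1, which bundles the central spindle, at -0.94, and Mxd3, a MYC network protein, at 11.5, 8.48 and 10.9 against 21.2 and 19.8 (log2 change -1.01). Penis 3 was the highest penis library for most of these genes, as for Cenpf at 59.3 against 37.9 and 35.6, and remained below both limbs.

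The 15 replication genes had log2 changes from -1.57 to -0.64 with a median of -1.20, in a range that overlapped that of the 23 mitotic genes (-2.34 to -0.94, median -1.64). This difference between the lists was not tested. The 8 licensing and helicase genes had a median log2 change of -1.22. Mcm5 (chr8:75109468-75128439) led them, at 11.4, 10.9 and 11.2 CPM in the penis and 31.8 and 33.6 in the limbs (log2 change -1.57, SE 0.06, edgeR adjusted p = 8.29e-08), and Mcm4 changed least of the MCM genes, at -0.82. Among fork and nucleotide genes, Pcna (chr2:132249286-132253180) was at 71.8, 76.1 and 77.4 against 137 and 121, a log2 change of -0.80. Rrm1, the large subunit of ribonucleotide reductase, was at 41.0, 41.1 and 42.8 against 69.2 and 63.4 (log2 change -0.69), and its partner Rrm2 changed by -1.20. The cyclin E genes differed from each other: Ccne1 gave 14.1, 14.9 and 15.6 against 38.8 and 35.2 (log2 change -1.33), and Ccne2 13.6, 16.2 and 14.9 against 23.9 and 22.1 (log2 change -0.64, SE 0.09, edgeR adjusted p = 1.61e-04), the smallest change of the 38. The penis libraries were close to each other for all of these named genes.

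Forelimb and hindlimb lay close together. The hindlimb value was below the forelimb value for 23 of the 38 genes in mesenchyme-like cells, with a ratio of 0.879 to 1.07 and a median of 0.968. With 1 library each, this difference was not tested.

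The other types gave fewer calls, and no gene of the 38 was called higher in the penis in any of the 8 types or in all cells together (edgeR, adjusted p under 0.05). Some members without a call had a higher mean in the penis, with limb over penis ratios of CPM of 0.723 for Mcm4 in chondrocyte-like, 0.711 for Mxd3 in tendon-like and 0.890 for Cdc6 in Schwann-like cells. In the sum over all cells, 38 of 38 were higher in the limb, where 35.7% of all genes tested were called higher in the limb and 36.4% higher in the penis. The count was 35 of 38 in endothelial-like cells, where 22.9% of all genes were called higher in the limb and 22.6% higher in the penis, and where Mxd3, Esco2 and Ccne2 had no call. With the shares of all genes higher in the limb and in the penis in brackets, it was 34 of 37 tested in macrophage-like (19.2% and 22.4%), 32 of 38 in Schwann-like (18.3% and 18.2%) and 31 of 37 in mural-like cells (11.9% and 12.3%). Basal epithelial-like cells gave 23 of 38 (9.33% and 8.9%). Tendon-like cells, with 43 to 64 penis cells per library, gave 22 of 37 (11.9% and 13.7%), and chondrocyte-like cells 9 of 35 (18.6% and 20%). In basal epithelial-like cells the mitotic genes held 17 of the 23 calls, and among the 9 replication genes without one were Mcm2, Mcm3, Mcm4, Mcm6 and Mcm7. The count moved with the setting, and so did the number of all genes called higher in the limb, given beside it. In tendon-like cells it was 10 with DESeq2 (536 of 8948 genes tested), 10 with 1 more marker per gate (225 of 4523), 13 without the forelimb (631 of 9139) and 10 without the hindlimb (677 of 9098). In basal epithelial-like cells it was 12 without the forelimb (543 of 12322) and 11 without the hindlimb (566 of 12339). In mural-like cells it was 19 with 1 more marker per gate (575 of 8607) and 20 with 1 filter for all libraries (1355 of 10948).

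**Figure D3:**
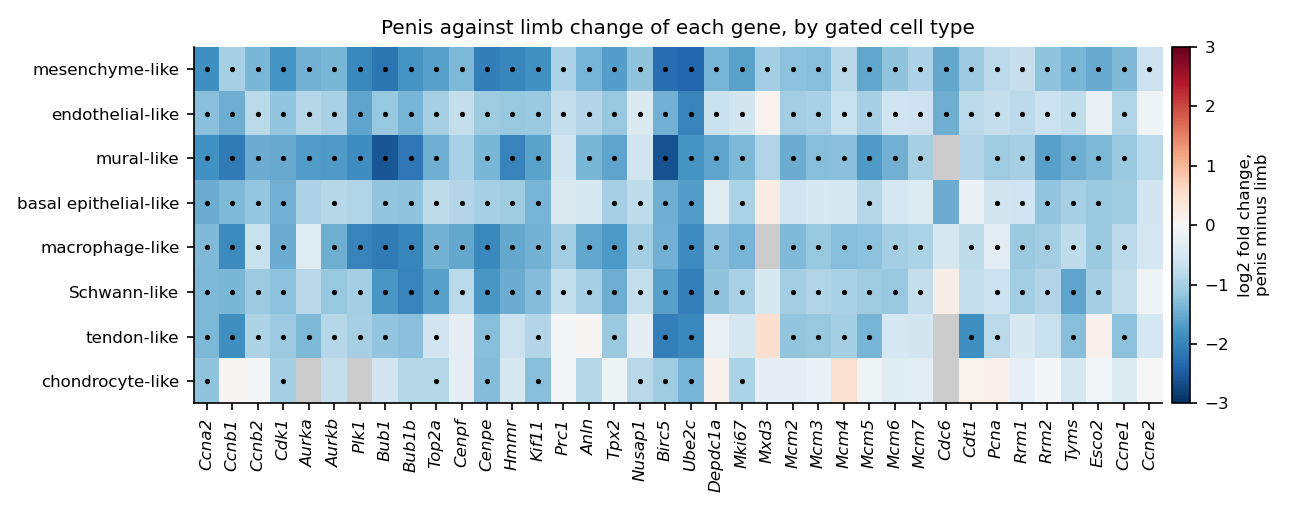
Penis minus limb log2 fold change (colour) of each of the 38 genes (columns) in 8 gated types (rows), with a black dot where the edgeR adjusted p was under 0.05 and grey where the gene was not tested. Blue (higher in the limb) prevails in all rows, and the chondrocyte-like row has the smallest median log2 change, at -0.32. In that row 9 of 35 genes tested have a dot and all 9 are mitotic.

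For 19 of the 38 genes the limb excess was smaller in endothelial-like than in mesenchyme-like cells. The test of the difference (the interaction of type and tissue, with the library as a block) called these 19 and 0 genes with a larger excess in endothelial-like cells (edgeR), against a background of 12.9% and 10.1% of genes. At Mki67 the endothelial-like cells had 133, 104 and 95.5 CPM in the penis and 164 and 154 in the limbs, a log2 change of -0.54 against -1.59 in mesenchyme-like cells. Esco2, the cohesin acetyltransferase, was at 22.1, 22.9 and 21.2 against 25.8 and 24.4 (log2 change -0.21, edgeR adjusted p = 0.246) in endothelial-like cells, and its interaction was the largest of the 19 at 1.33 (SE 0.17, edgeR adjusted p = 5.39e-05). Top2a was at 140, 131 and 103 against 252 and 239, an interaction of 0.68. Ccnb1 ran the other way without a call, with a log2 change of -1.46 in endothelial-like and -0.99 in mesenchyme-like cells (interaction -0.43, SE 0.21, edgeR adjusted p = 0.173). DESeq2 called 12 of the 38, a count for which no share of all genes is at hand and which is not read against the edgeR background.

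In chondrocyte-like cells, which make cartilage, the penis held few cells and the values moved with the gate. Their mitotic-positive share was 10.6%, 14.7% and 12.1% of 47, 34 and 33 penis cells, against 19.5% and 24.5% of 1251 and 1634 limb cells. The replication-positive share was 17.0%, 11.8% and 15.2% against 10.2% and 15.1%, so the groups overlapped, and the 95% interval of a single penis library reached from 7.65% to 30.8%. None of the 14 replication genes tested was called by edgeR, with Pcna at 139, 117 and 145 CPM in the penis against 117 and 125 in the limbs. The 9 calls, all higher in the limb, were mitotic, among them Top2a at 103, 121 and 175 against 197 and 267 (log2 change -0.85, edgeR adjusted p = 0.00377). An interaction test chosen after seeing the data called a smaller limb excess than in mesenchyme-like cells for 23 genes and a larger one for 0 (background 5.35% and 8.49%). Yet these counts became 1 and 4 with 1 more marker per gate and 5 and 0 with 1 filter for all libraries. The shares of all genes called under those settings are not at hand. With 1 more marker per gate, which left 14 to 17 penis cells per library, the ratio of mitotic-positive shares was 5.26 in place of 1.76, and 16 members were called higher in the limb with 1 filter for all libraries (1404 of 8599 genes tested) or with no filter on low counts (2613 of 23020). Among the markers of this type, Col2a1 was detected in 57.4%, 52.9% and 60.6% of the penis chondrocyte-like cells and Acan in 61.7%, 35.3% and 18.2%, while Matn1 had 0 UMIs, which allows a share of cells with a UMI of up to 6.38%, 8.82% and 9.09% and sets no limit on the cells that express it. Their part in the result was not tested.

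Mesenchyme-like cells were also split into mitotic-positive cells (252, 248 and 207 in the penis, 2707 and 2434 in the limbs) and other cells (3289 to 3970 in the penis, 8519 and 8130 in the limbs). The mitotic genes chose these cells and the replication genes go with them in the cycle, so what follows is a description and does not separate the number of dividing cells from the RNA in each. The mitotic-positive share of muscle fibre-like cells, 13.9% and 13.2% in the limbs, could not be measured in the penis. Whether those calls are false was not tested, nor was the part of such calls in the values. In mitotic-positive cells 0 of 15 replication genes were higher in the limb and 5 were higher in the penis (edgeR, background 25.4% and 26.2%): Ccne2 by 0.77, Rrm2 by 0.51, Esco2 by 0.49, Rrm1 by 0.42 and Pcna by 0.34 on the log2 scale. Pcna there was at 254, 247 and 250 CPM in the penis against 196 and 176 in the limbs, and Ccne2 at 58.3, 67.8 and 67.7 against 37.1 and 33.8. None of the 8 licensing genes was called, as for Mcm5 at 58.0, 45.1 and 46.2 against 47.0 and 47.1. The 5 of 15 lay near the background share of genes higher in the penis. With no filter on low counts 3 replication genes were called higher in the penis (2536 of 25438 genes tested). Nothing is read from this count.

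A limb excess of the replication genes was present in the cells below the mitotic count. In those other mesenchyme-like cells 15 of 15 replication genes were higher in the limb (edgeR, background 34.1% higher in the limb and 34.7% in the penis), with a median log2 change of -1.17. Mcm5 stood at 7.91, 8.25 and 8.40 CPM in the penis against 24.9 and 27.8 in the limbs there, and Pcna at 58.1, 63.2 and 63.8 against 110 and 97.9. At 2000 UMIs some dividing cells show fewer than 2 mitotic genes, so the comparison was repeated in mesenchyme-like cells with no UMI of any of the 23 mitotic genes before thinning, a choice made after seeing the data. Those were 1770 to 2113 cells per penis library and 3586 and 3339 in the limbs, with medians of 8501.5 to 9603 and of 4473 and 5040 UMIs. There 14 of 15 replication genes were still higher in the limb (background 31.6%, and 32.4% higher in the penis), from Mcm5 at -1.78 and Esco2 at -1.72, whereas Rrm1 had no call (log2 change -0.07, edgeR adjusted p = 0.467). The limb cells of this subset were the shallower ones, and dividing cells missed at that depth were not counted.

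**Figure D4:**
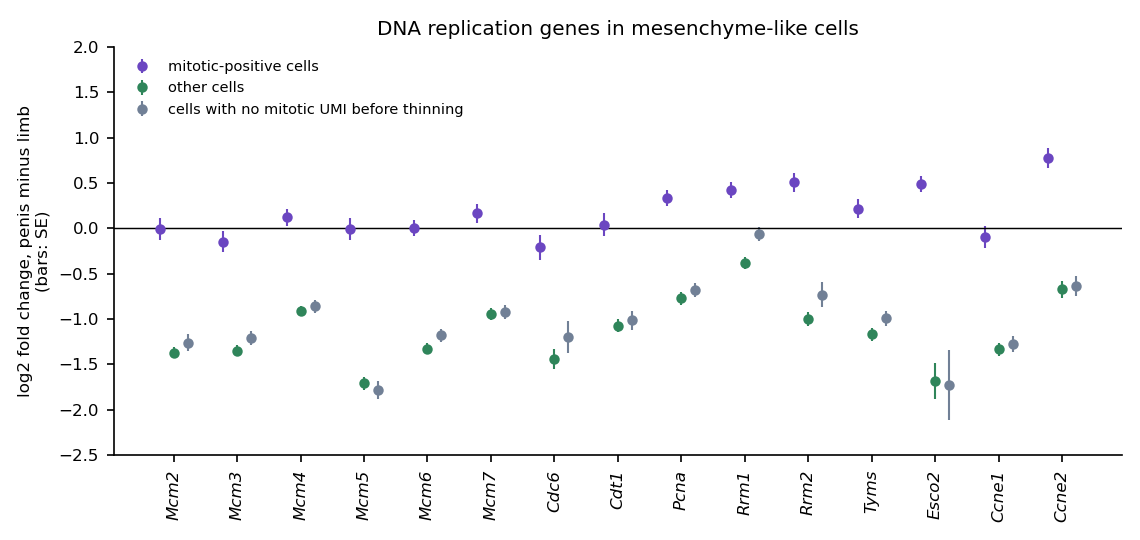
Penis minus limb log2 fold change (vertical axis, bars for the SE) of the 15 replication genes in mesenchyme-like cells that were mitotic-positive (purple), in the other cells (green) and in cells with no mitotic UMI before thinning (grey). Purple points lie between -0.21 and 0.77, and green points lie below 0 for all 15 genes, at a median of -1.17.

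For the mitotic genes, which chose the cells, the split fixes part of the values. Their counts and calls here describe the split and are not a test. In mitotic-positive mesenchyme-like cells 13 of 23 were higher in the penis, led by Mxd3 at a log2 change of 1.00 and Prc1 at 0.90, and 2 in the limb, Ube2c at -0.37 and Birc5 at -0.32, where 26.2% of all genes were called higher in the penis and 25.4% in the limb. Ccnb1 stood out in the other cells, where it was higher in the penis at 7.43, 8.83 and 8.56 CPM against 3.87 and 3.74 (log2 change 1.10), while 21 of the 23 were higher in the limb (background 34.1%, and 34.7% higher in the penis). The make-up of the positive cells was also counted. Of mesenchyme-like cells positive by either list, 25.3% to 26.5% in the penis and 21.1% and 22.8% in the limbs were positive by the replication list alone. Those positive by the mitotic list alone made up 46.1% to 48.7% in the penis and 52.7% and 53.6% in the limbs. The values of the penis and limb libraries did not overlap in either share. The penis shares rest on 343, 337 and 277 cells positive by either list. Their counting error is not given, so no difference in make-up is read from them.

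The share of cells with a UMI of each gene was compared between mitotic-positive and other cells. Since other mitotic genes define the positive cells, and cells in S phase below the mitotic count are among the other cells, a lower ratio of a replication gene follows from the definition in part and does not measure how well it marks dividing cells. Top2a was detected in 55.9% of penis cells that were positive by the other mitotic genes and in 2.24% of the remaining cells, and in 56.3% and 5.61% in the limb. Mki67 gave 49.4% and 1.60% in the penis and 44.6% and 3.34% in the limb. The highest ratio in both tissues was that of Depdc1a, a mitotic gene found in 16.4% of positive and 0.0480% of other penis cells and in 10.6% and 0.354% in the limb. For the 23 mitotic genes the share in positive cells exceeded that in other cells by a median of 39.8 times in the penis and 18.9 times in the limb, and for the 15 replication genes by 3.97 and 1.85 times. The lowest ratio in both tissues was that of Mcm4, found in 10.0% of positive and 5.78% of other penis cells and in 12.4% and 9.94% in the limb. Esco2 had the highest ratio of the 15 replication genes in both tissues, at 18.7% and 0.258% in the penis and 14.7% and 0.616% in the limb. Pcna was found in 29.4% and 10.9% in the penis and in 28.7% and 17.2% in the limb.

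**Figure D5:**
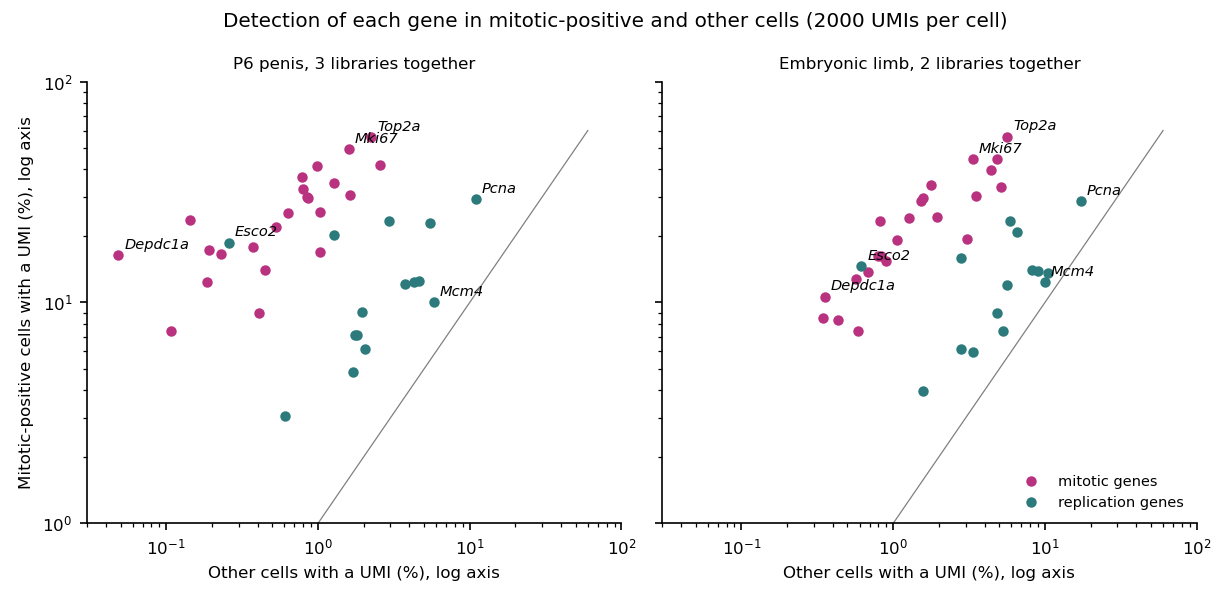
Share of mitotic-positive cells (vertical log axis, %) and of other cells (horizontal log axis, %) with a UMI of each gene in penis (left) and limb (right), where the line marks equal shares. Mitotic genes lie far above the line, as Top2a at 55.9% and 2.24% in the penis. Most replication genes lie closer to it, as Mcm4 at 10.0% and 5.78%. Esco2 lies among the mitotic genes, and Rrm2 (20.2% and 1.28% in the penis) near the lowest of them.

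Further genes of the pathway, from fixed lists, were read in mesenchyme-like cells, where 35% of all genes tested were called higher in the limb and 35.3% higher in the penis. Of 26 other mitosis genes 26 were higher in the limb, with the largest log2 changes in Dlgap5 (-2.01), Cks2 (-1.88) and Kif2c (-1.81). Of 24 other replication genes 22 were higher in the limb, led by Gmnn, the inhibitor of Cdt1, at 9.48, 9.13 and 8.85 CPM in the penis against 38.8 and 34.9. Cdca7, a DNA methylation cofactor, went the other way, with 42.3, 42.6 and 44.9 against 21.6 and 25.4 (log2 change 0.86, edgeR adjusted p = 8.21e-06). Among E2F and pocket protein genes, 7 of 11 were higher in the limb, led by the atypical repressors E2f7 (-1.92) and E2f8 (-1.82), E2f5 was higher in the penis (0.35), and the pocket genes Rb1, Rbl1 and Rbl2 had no call.

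In the smaller lists of G1 control the counts are to be read against the same 35% and 35.3%. Of 6 cyclin D genes and G1 kinases, Ccnd1, Ccnd3, Cdk2 and Cdk4 were higher in the limb, with log2 changes from -0.27 to -0.84, whereas Cdk6 was higher in the penis (0.35) and Ccnd2 had no call. Of the 7 inhibitors of cyclin-dependent kinases, 3 were higher in the penis, a share near that background: Cdkn1b (0.83), Cdkn2c (0.68) and Cdkn2a (0.63). Cdkn1b, which encodes p27, was at 80.6, 77.6 and 78.5 CPM in the penis against 47.4 and 40.6 in the limbs. Cdkn1c, the imprinted inhibitor p57, was higher in the limb with the dividing genes, at 833, 854 and 815 against 2894 and 2788 (log2 change -1.78, SE 0.07, edgeR adjusted p = 1.09e-07). Cdkn2d was also higher in the limb (-0.70), and Cdkn1a and Cdkn2b had no call.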

How the data were processed

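The authors dissociated P6 penises and embryonic limbs, made libraries with the 10X Single Cell 3' kit and counted UMIs with Cell Ranger 7.0.0 (build mm10). Per the file headers and values, each deposited matrix holds whole UMI counts by gene and cell barcode with no normalization, and a row was taken by its gene symbol. Cells were kept by the limits of the study's methods, read as genes detected (500 to 6000 in penis, 100 to 9000 in forelimb, 100 to 9500 in hindlimb), at most 5% (penis) or 10% (limbs) mitochondrial UMIs, and log10 genes over log10 UMIs of at least 0.8. Each cell was thinned to 2000 UMIs with a fixed seed for gates and shares, and cells that passed unrelated gates were left out as ambiguous. A larger set, 2491 penis and 8009 limb cells, passed no gate and entered no type. Of these, 7.76% to 9.10% per penis library, 32.7% in the forelimb and 30.0% in the hindlimb were mitotic-positive. No doublet caller was run.

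The unthinned counts were summed per library and type and tested with edgeR 4.0.16 in R 4.3.3 (quasi-likelihood, TMM, filterByExpr, Benjamini-Hochberg over all genes tested), 3 penis libraries against forelimb and hindlimb as 1 group. DESeq2 1.42.0, RLE factors, no filter on low counts, other gates, a common cell filter and leaving out libraries were alternatives. The common cell filter took at least 500 genes and at most 10% mitochondrial UMIs in every library, with no upper gene limit. On simulated counts for mesenchyme-like cells (20248 genes), edgeR recovered 85.9% of 92 genes changed by 1 on the log2 scale. It recovered 100% of 108 genes changed by 2, with 9 false calls. In the data 35% and 35.3% of genes were called higher in the limb and in the penis. Recovery and false calls with so many changed genes were not simulated. The p-values measure the spread between these libraries, which may be technical, and the intervals cover counting error only. Values per library were fixed for 10 genes and for the 3 largest and 3 smallest changes in mesenchyme-like cells. The 38 genes, lists and tests were chosen with earlier results of these data known. Python 3.11.15 computed the shares and promoter matches. A gene with several RefSeq start sites was counted by the first one listed in the RefSeq table.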

Additional observations from a re-analysis of the deposited data

Results flagged for a closer look

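The penis minus limb change differed between endothelial-like and mesenchyme-like cells for 19 of 38 genes by the interaction test (edgeR adjusted p under 0.05). Each had a smaller limb excess in endothelial-like cells. Over all 19240 genes tested, 12.9% had a positive difference called and 10.1% a negative one. The log2 differences were 0.59 for Ccnb2, 0.62 for Cdk1, 1.10 for Bub1, 0.68 for Top2a, 0.70 for Cenpf, 1.06 for Cenpe, 0.88 for Hmmr, 0.75 for Kif11, 0.81 for Nusap1, 0.88 for Birc5, 1.10 for Mki67 and 1.15 for Mxd3. Among replication genes they were 0.35 for Mcm3, 0.60 for Mcm5, 0.64 for Mcm6, 0.35 for Mcm7, 0.59 for Rrm2, 0.64 for Tyms and 1.33 for Esco2.

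For chondrocyte-like against mesenchyme-like cells the same test, chosen after seeing the data, called 23 of 38 genes. Over all 19015 genes tested there, 5.35% had a positive difference called and 8.49% a negative one. The count of 23 fell to 1 with 1 more marker per gate. The log2 differences were 0.93 for Ccnb1, 1.20 for Ccnb2, 0.64 for Cdk1, 1.50 for Bub1, 0.67 for Top2a, 0.98 for Cenpf, 1.37 for Hmmr, 0.77 for Prc1, 1.39 for Tpx2, 1.10 for Birc5, 0.82 for Ube2c and 1.42 for Depdc1a. Among replication genes they were 0.85 for Mcm2, 0.97 for Mcm3, 1.17 for Mcm4, 1.31 for Mcm5, 0.72 for Mcm6, 1.61 for Cdc6, 1.06 for Cdt1, 0.80 for Pcna, 1.01 for Rrm2, 0.73 for Tyms and 1.31 for Esco2.

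Penis barcodes over the upper limit of 6000 genes that passed the other cell limits entered the comparisons with the common cell filter alone. They were mitotic-positive more often than the kept cells at 2000 UMIs. The shares were 29.7% of 472 in penis 1 (95% interval 25.6% to 34.0%), 31.9% of 405 in penis 2 (27.3% to 36.6%) and 30.2% of 281 in penis 3 (24.9% to 36.0%). These barcodes held a median of 33254, 36628 and 31569 UMIs. How many hold more than 1 cell was not tested.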

How the results depend on the processing

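The limb excess kept its direction for the 38 genes in mesenchyme-like cells in 380 of 380 recomputed values. Settings without the forelimb or the hindlimb left 1 limb library, so the penis libraries alone gave the spread there. No paired analysis was possible because the groups share fewer than 2 replicate numbers, and a shared number pairs no P6 animal with an embryo. The count of genes higher in the limb changed by over 1.5 times in chondrocyte-like cells (16 with no filter on low counts, 16 with the common cell filter), in tendon-like cells (10 with DESeq2, 10 with 1 more marker per gate, 10 to 18 leaving out a library) and in mural-like cells (20 with the common filter, 19 with 1 more marker). In basal epithelial-like cells it ran from 11 to 23 leaving out a library. Replication genes higher in penis mitotic-positive mesenchyme-like cells were 3 with no filter on low counts (2536 of 25438 genes tested). The endothelial-like interaction had 12 positive genes with DESeq2 and 0 to 1 negative ones leaving out a library. The chondrocyte-like interaction had 15 with DESeq2, 5 with the common filter, 1 positive and 4 negative with 1 more marker, and 12 to 18 leaving out a library. For the interaction counts under these settings the shares of all genes called are not at hand, so only the shift of the counts is given. The ratio of mitotic-positive shares in all cells was 2.27 with at least 1 mitotic gene, 3.71 with 3, 3.25 by replication genes, 3.77 at 4000 UMIs, 1.98 without thinning and 2.97 with the common filter. In mesenchyme-like cells it was 2.38, 4.32, 3.30, 4.15, 2.09 and 3.70, and 3.83 at 1000 UMIs. The cause was not tested for any of these shifts, apart from fewer cells with more markers. The limb has 1 library per limb, tendon-like and chondrocyte-like cells are few in the penis, and at 2000 UMIs a dividing cell can show fewer than 2 mitotic genes.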
